A study of Mus musculus with 38 samples.

Results

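CREB binding sites of mouse liver were compared between fasted and fed animals. The sites are the regions of the authors' deposited peak list for total CREB in liver after a 24 h fast (11339 sites) and of the list for total CREB in fed liver (13142 sites). Together these 24481 sites are part of 278566 regions in the 11 lists that could be matched to a group of samples. A site was called shared when it had at least 1 base in common with a site of the other list, and otherwise it belonged to the fasted list only or to the fed list only. The mice were C57BL/6, and both states were immunoprecipitated with the same CREB antibody. One state was a 24 h fast, and the other was free access to food, although the sample titles of the fed group also carry 24 h. Each state had 3 samples, and the name of each list gives 2 of them. A list holds 1 value per site and none per library, so the spread between animals is unknown. No test of a change with fasting could therefore be made, and each difference below is one between 2 lists. The intervals given are 95% Wilson intervals, and they cover counting error only. The lists hold no read counts, so the depth behind a site is unknown.

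CREB is a transcription factor that binds the cAMP response element, a short palindromic DNA motif of many promoters. During a fast, glucagon raises cAMP in hepatocytes and protein kinase A phosphorylates CREB at a serine of its kinase-inducible domain, which lets it recruit the coactivators CBP and p300. Together with the CRTC coactivators, which enter the nucleus in the same state, CREB drives genes of gluconeogenesis such as Pck1, the enzyme that makes phosphoenolpyruvate from oxaloacetate, and G6pc, the glucose-6-phosphatase. The antibody used here recognises total CREB, so a site is counted whether or not the bound protein is phosphorylated.

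The other 9 lists served as marks for the CREB sites, by an overlap of at least 1 base. They were 3 CREB lists from isolated hepatocytes, the main cell type of liver, which had been left untreated or given 10 nM glucagon alone or with 1.7 uM corticosterone for 1 h. The glucocorticoid receptor (GR), the nuclear receptor for corticosterone, was mapped in 1 list, from hepatocytes given both hormones. H3K27ac, the histone acetylation found at promoters and enhancers in use, was mapped in 3 lists of liver, from fed animals and from animals fasted for 10 h or 24 h. The last 2 lists gave phospho-CREB in liver of 24 h fasted and of fed animals. The lists differed in size, which bears on any overlap of 1 base. The hepatocyte CREB lists held 47596 sites untreated (median width 464 bp), 28229 with glucagon (590 bp) and 42090 with both hormones (652 bp). The H3K27ac lists held 29917 regions in fed liver (822 bp), 47777 at 10 h (699 bp) and 32103 at 24 h (798 bp). Smaller and narrower were the GR list, with 11892 sites (421 bp), and the phospho-CREB lists. The latter held 6812 sites in fasted liver (412 bp) and 7669 in fed liver (425 bp). Whole liver holds several cell types, so a site missing from a list and a site bound in fewer cells cannot be told apart. The name of the untreated hepatocyte list gives 1 library against itself, and the names of the other hepatocyte lists give 2 libraries. Since the lists are positions in the mouse build mm9 without gene names, and no mm9 annotation was used here, no gene is named for a site and the liver label was not checked against marker genes.

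The lists of both states resembled each other in the shape of their sites. The median width was 497 bp in the fasted list and 487 bp in the fed list, with quartiles of 342 to 692 bp and 342 to 693 bp. The sites covered 6.55 Mb in the fasted list and 7.53 Mb in the fed list. The authors' highest tag density within a site had a median of 8.42 in the fasted list and 8.13 in the fed list. Its scaling is not stated, so density is used here only as a rank within its own list, written as a percentile in which 100 is the densest site.

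In the fasted list 6949 sites were shared (61.3%, interval 60.4 to 62.2), and in the fed list 6968 (53.0%, 52.2 to 53.9). The fasted list held 4390 sites that the fed list lacked, 38.7% of its length, and the fed list held 6174 sites that the fasted list lacked, 47% of its length. Counted in bases, the sites of 1 list only took 25.9% of the covered sequence of the fasted list and 32.7% of that of the fed list, less than their share of sites because they were narrow. Most shared sites had a single partner: 6811 of 6949 in the fasted list and 6849 of 6968 in the fed list. The others met 2 or 3 partners.

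Few calls hung on the edge of the matching rule. The sites with the slightest overlap were 45 pairs that shared 50 bases or fewer, with a median percentile of 38.8 in the fasted list and 37.4 in the fed list. Just outside the rule lay 44 fasted-only sites (median percentile 30.6, median width 381 bp) and 26 fed-only sites (21.6, 317 bp) within 50 bp of a site of the other list. A site of the other list lay within 500 bp for 7.20% of the fasted-only sites and for 4.78% of the fed-only sites, and within 10 kb for 29.3% and 20.6%. The median distance to the nearest such site was 44.2 kb for fasted-only sites and 71.7 kb for fed-only sites. Most sites of 1 list only thus had no site of the other list within 10 kb.

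Whether a site was shared followed its density closely. Sites of 1 list only had a median percentile of 24.6 in the fasted list and 30.1 in the fed list, whereas shared sites had medians of 67.7 and 71.7. Of the fasted-only sites 15.7% (690 sites) lay in the denser 50% of their list, and of the fed-only sites 23.6% (1455 sites). The difference between the states was found in the middle of the lists. In the lowest density decile the shared part was 14.9% in the fasted list and 15.8% in the fed list, and in the highest it was 98.1% and 98.9%. In the fifth decile it was 63.5% in the fasted list and 39.0% in the fed list. In the sixth decile it was 72.1% and 49.8%, and in the seventh 80.5% and 62.2%. Intervals of these mid-list shares did not overlap between the lists. The fed list is the longer one, so a site at a given decile has more sites above it there than in the fasted list. Cut to the 11339 densest sites, the fed list and the fasted list left 4687 fasted-only and 4684 fed-only sites, near equal numbers as equal lengths give by construction.

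**Figure D1:**
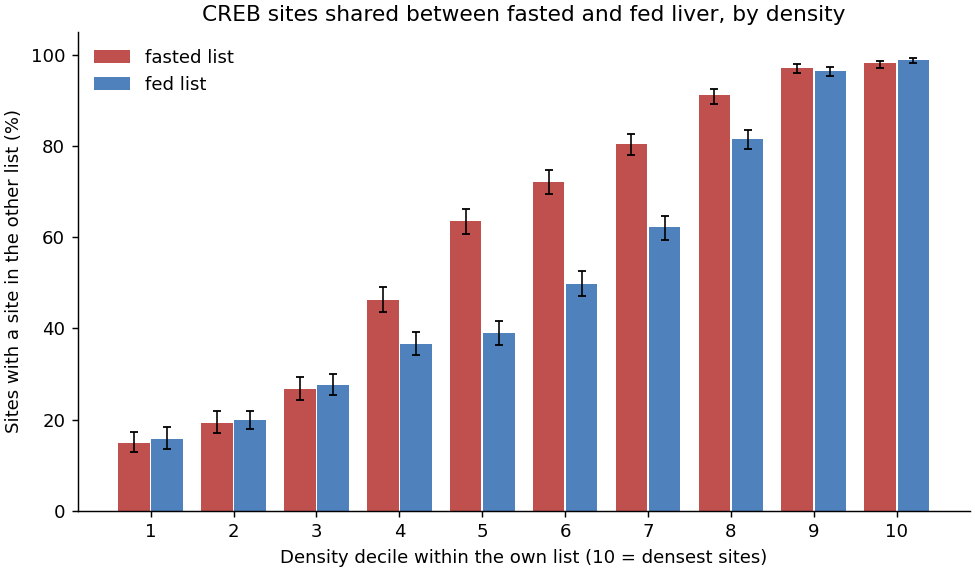
Percent of CREB sites shared with the other list (vertical axis) by decile of the authors' density within each list (horizontal axis, 10 is densest), with 95% Wilson intervals. The bars of both lists start near 15% and end over 98%. The fasted list lies above the fed list from the fourth to the ninth decile, with overlapping intervals in the ninth.

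At the top the 2 lists were nearly the same set. Among the 1000 densest sites, 20 of the fasted list were absent from the fed list and 8 of the fed list were absent from the fasted list. Among the 2000 densest these counts were 47 and 25, and among the 5000 densest they were 507 and 684. The first fasted-only site stood at rank 44 of its list, and the first fed-only site at rank 381.

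Width followed the same pattern as density. Fasted-only sites had a median width of 352 bp (quartiles 278 to 456 bp) and fed-only sites 371 bp (282 to 477 bp). Shared sites were wider, with a median of 620 bp in the fasted list (462 to 835 bp) and 652 bp in the fed list (479 to 890 bp). Of the narrowest sites, up to 300 bp, 25.8% were shared in the fasted list and 19.8% in the fed list. Of those between 501 and 700 bp, 76.3% of the fasted and 64.9% of the fed sites were shared. Above 1000 bp, 99.3% and 99.4% were shared. Width and density each went with sharing when the other was held roughly constant. In the lowest width quartile, the shared part was 51.8% (fasted) and 35.7% (fed) in the denser 50%, against 24.0% and 18.2% in the less dense 50%. In the highest width quartile it was 98.5% (fasted) and 96.4% (fed) in the denser 50%, against 77.5% and 70.7% in the less dense 50%.

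**Figure D2:**
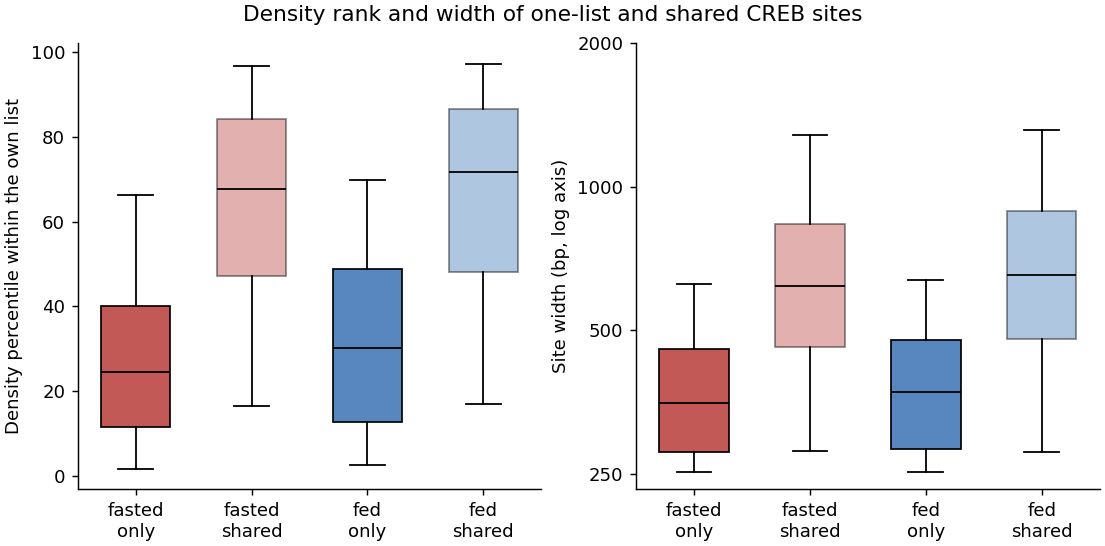
Density percentile within the list (left) and site width in bp (right) of CREB sites in the fasted list only, the fed list only, and shared sites of each list. Boxes give quartiles and medians, and whiskers the 5th to 95th percentile of the sites. In both lists the sites of that list only were less dense and narrower than the shared sites.

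Shared sites kept their order between the states. Over 6592 site pairs in which each site met a single partner, the Spearman correlation of the density ranks was 0.93, that of the widths 0.80 and that of the z-scores 0.84. These describe sites within 1 pair of lists and are given without a p, since neighbouring sites and the libraries are common to all points. The percentile in the fasted list minus that in the fed list had a median of -1.07 points (quartiles -6.33 to 2.87), and 73.0% of the pairs lay within 10 points. The fasted site was the wider one in 2557 pairs and the fed site in 3987, with a median width difference (fasted minus fed) of -30 bp. Only 2.87% of the pairs differed by more than 25 points. Of these, 79 ranked higher in the fasted list and 110 ranked higher in the fed list. A percentile also depends on the sites of 1 list only, and the fed list held more of these (6174 against 4390). The 6592 pairs had a median percentile of 68.3 in the fasted list and 72.6 in the fed list. The balance of 79 to 110 is therefore no measure of a change in binding.

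**Figure D3:**
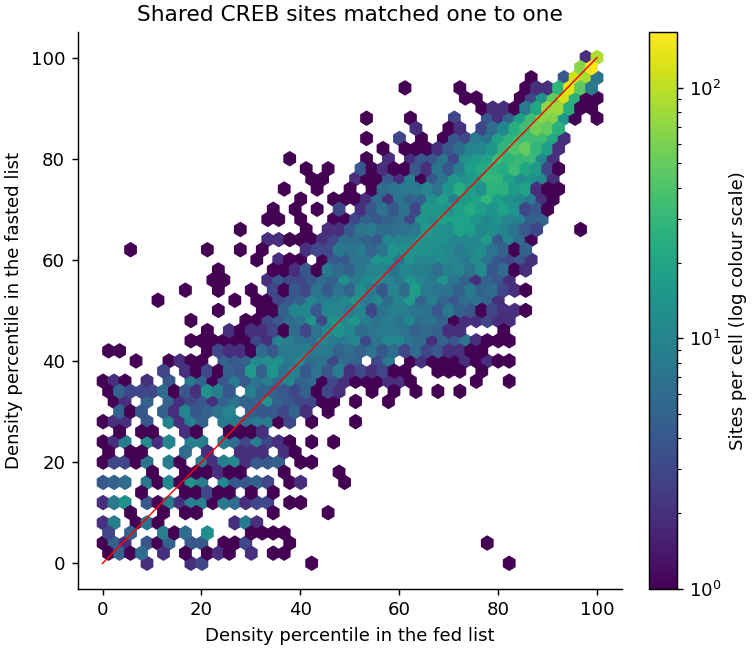
Density percentile in the fasted list (vertical axis) against that in the fed list (horizontal axis) for the 6592 pairs of CREB sites with a single partner each. The colour of each hexagon gives the number of pairs on a log scale, and most pairs lie close to the diagonal.

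The few pairs that changed rank most also differed in their overlap with the other lists, and in density and width. Median percentiles (fasted list, fed list) were 52.4 and 18.9 for pairs over 25 points higher in the fasted list. They were 43.8 and 75.2 for pairs higher in the fed list, and 69.1 and 72.9 for pairs within 25 points. In the same order, median widths were 538 and 283 bp, 327 and 688.5 bp, and 624 and 653 bp. The part of density and width in the overlaps was not tested. Of the 79 pairs ranked over 25 points higher in the fasted list, 44.3% lay at a hepatocyte CREB site (interval 33.9 to 55.3). Of the 110 ranked higher in the fed list it was 85.5% (77.7 to 90.8), and of the pairs within 25 points 67.2%. Phospho-CREB sites of liver were met by 51.9% of the first group and 16.4% of the second, against 52.2% of the pairs within 25 points. The widest gap upward in the fasted list was at chrX:140457797-140458250, at percentile 61.3 in the fasted list and 5.13 in the fed list, which overlapped none of the 9 other lists. The next was at chr12:21574354-21575034, at percentile 80.8 in the fasted list and 37.3 in the fed list, which lay at all 3 hepatocyte CREB lists, all 3 H3K27ac lists and the GR list. The widest gap downward was at chr2:113512748-113513006, at percentile 0.609 in the fasted list and 81.6 in the fed list. There the fasted site was 259 bp wide and the fed site 547 bp. The next was at chr13:64660869-64661120, at percentile 4.97 in the fasted list and 77.7 in the fed list. All 5 of the widest downward gaps lay at a site of each of the 3 hepatocyte CREB lists and at no phospho-CREB site. Of the 5 widest upward gaps among these 5170 pairs, 2 lay at hepatocyte CREB sites, and both of those were also GR sites.

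The very top of both lists was held by sites of an unusual shape. A flat profile was read from the authors' average density divided by the highest density of the same site, which had a list median of 0.38. The 35 densest fed sites all lay between 0.573 and 0.595, and 21 of the 35 densest fasted sites were over 0.5. The next 1000 sites had a median of 0.358 in the fasted list and 0.356 in the fed list. The densest site of both lists lay at chr10:121200000-121200532 in the fasted list, with a density of 12969 there and of 51733 in the fed list. The shared sites at chrX:141949418-141949913, chr13:45493744-45494322, chr7:97590148-97590775 and chr14:46432125-46432698 took the following ranks in both lists, in slightly different order. All 5 were flat in shape (0.578 to 0.587 in the fasted list) and lay at both phospho-CREB lists, and the site on chromosome 7 was the only one at a hepatocyte CREB or H3K27ac site. Hepatocyte CREB sites were met by 17 of the 35 densest fasted sites and 3 of the 35 densest fed sites. Of the next 1000 sites, 87.6% of the fasted and 91.5% of the fed sites met one.

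The densest flat sites of the fed list stood high in the fasted list too, but not at the same ranks. Of the 35 densest fed sites, 21 were among the 35 densest fasted sites and 4 held ranks 36 to 100 there. The other 10 ranked below 100, the lowest at 677. Among 41 pairs of flat sites in the densest decile of either list, the rank was better in the fasted list for 8 and in the fed list for 31. Among the 1284 pairs of peaked sites, at or under 0.5, it was better in the fasted list for 620 and in the fed list for 656. Flat sites also made up most of the absences at the top of the fasted list. In its densest decile 17 of 21 fasted-only sites were flat, against 4 of 14 fed-only sites in the densest decile of the fed list. Without flat sites, 99.6% of the densest fasted decile (1070 of 1074) and 99.2% of the densest fed decile (1256 of 1266) were shared. What gives a site its flat shape was not tested.

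The densest sites of the fasted list only were therefore mostly of this shape. They lay at chr7:71053979-71054412 (density 409.8, rank 44), chr6:91776787-91777159 (409.5, rank 45), chr5:122314366-122314704 (381.6, rank 49), chr15:99224722-99225364 (269.9, rank 92) and chr7:3658734-3659188 (175.9, rank 207). All 5 were flat, and the site on chromosome 15 was the only one at a site of any other list, with 2 of the hepatocyte CREB lists and all 3 H3K27ac lists. The densest fed-only sites were more mixed. The first, at chr3:135217041-135217454 (density 135.5, rank 381), was flat and met no other list. The second, at chrY:2791736-2792671 (120.2, rank 455), and the fifth, at chrY:2790516-2790820 (96.0, rank 589), lay within 2 kb of a fasted site. The third, at chr6:47717365-47717989 (105.1, rank 530), was peaked and lay at all 3 hepatocyte CREB lists, with a fasted site 1.34 kb away. The fourth, at chr10:23531315-23532026 (96.9, rank 581), was flat and lay at 1 hepatocyte CREB list and at all 3 H3K27ac lists.

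Sites of 1 list only met each kind of other list less often than shared sites did. The order of the 2 one-list classes depended on the mark. A hepatocyte CREB site of any of the 3 lists was met by 25.3% of the fasted-only and 39.4% of the fed-only sites, against 65.4% of the shared sites in the fasted list and 64.9% in the fed list. No site of any of the 9 other lists was met by 49.5% of the fasted-only and 44.5% of the fed-only sites, against 5.66% and 5.68% of the shared sites. H3K27ac of any of the 3 lists was met by 24.8% of the fasted-only and 34.3% of the fed-only sites, against 76.3% of the shared sites of either list. For liver phospho-CREB of either list the order was the reverse, with 21.7% of the fasted-only (20.5 to 22.9) and 11.9% of the fed-only sites (11.1 to 12.7), against 53.1% and 53.3% of the shared sites. Taken singly, the fasted phospho-CREB list was met by 13.5% of the fasted-only and 6.62% of the fed-only sites, and the fed one by 12.6% and 7.63%. Shared sites met these 2 lists at 36.2% and 48.4% in the fasted list and at 36.5% and 48.6% in the fed list. GR sites had the same order as phospho-CREB, with 12.4% of the fasted-only (11.5 to 13.4) and 7.61% of the fed-only sites (6.98 to 8.30), against 19.4% and 19.3% of the shared sites. Read the other way, sites present in all 3 hepatocyte lists numbered 4642 in the fasted list, of which 86.4% were shared, and 5607 in the fed list, of which 71.4% were shared. Of the sites with no overlap in any other list, 15.3% of the fasted and 12.6% of the fed sites were shared. The fed list therefore held 1603 sites found in all 3 hepatocyte CREB lists but absent from the fasted list, and the fasted list 631 absent from the fed list.

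**Figure D4:**
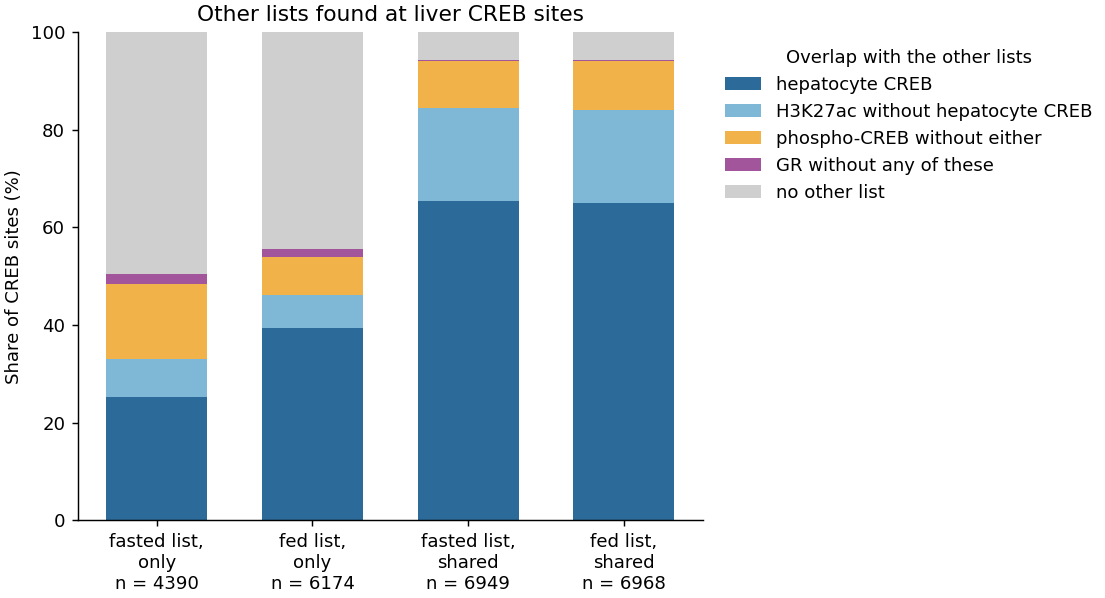
Percent of CREB sites by the other lists they overlap, for fasted-only, fed-only and shared sites. Each site is counted once, in the order hepatocyte CREB, then H3K27ac, then liver phospho-CREB, then GR, then no other list. Nearly 50% of the fasted-only and 44.5% of the fed-only sites met no other list, against under 6% of the shared sites.

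Among the denser sites the 2 one-list classes differed in kind. In the denser 50% of the lists, a hepatocyte CREB site was met by 71.4% of the 690 fasted-only sites (interval 68.0 to 74.7) and 86.6% of the 1455 fed-only sites (84.8 to 88.3). Shared sites of that density met one at 77.5% in the fasted list and 78.2% in the fed list. GR sites had the opposite order, with 30.0% of the fasted-only (26.7 to 33.5) and 8.93% of the fed-only sites (7.58 to 10.5), and with shared sites between them at 19.2% and 18.9%. Over all densities, as given above, fasted-only sites lay below shared sites in GR overlap. Liver phospho-CREB sites were met by 16.1% of the fasted-only and 4.12% of the fed-only sites, against 52.3% and 50.7% of the shared sites. The 24 h H3K27ac list was met by 62.9% of the fasted-only and 63.0% of the fed-only sites, against 68.2% and 69.2% of the shared sites. The fed H3K27ac list was met by 54.8% and 63.6%, against 65.4% and 66.4% of the shared sites. The 10 h list was met by 64.8% and 72.0%, against 84.2% and 84.6% of the shared sites.

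The overlap of fasted-only sites with GR grew with density. From the fourth to the ninth decile it was 14.1%, 17.99%, 25.3%, 30.5%, 40.6% and 53.1% of the fasted-only sites, the last being 17 of 32 sites. Over the same deciles of the fed list it ranged between 6.52% and 10.9% of the fed-only sites with no such order. In the densest decile 2 of 21 fasted-only and 0 of 14 fed-only sites met a GR site, the decile in which most fasted-only sites were flat. The gap held within widths too. Among denser sites of 501 to 700 bp, 38.1% of the fasted-only and 10.1% of the fed-only sites lay at a GR site. Among those of 701 to 1000 bp it was 22 of 35 fasted-only sites (62.9%) and 11 of 100 fed-only sites.

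**Figure D5:**
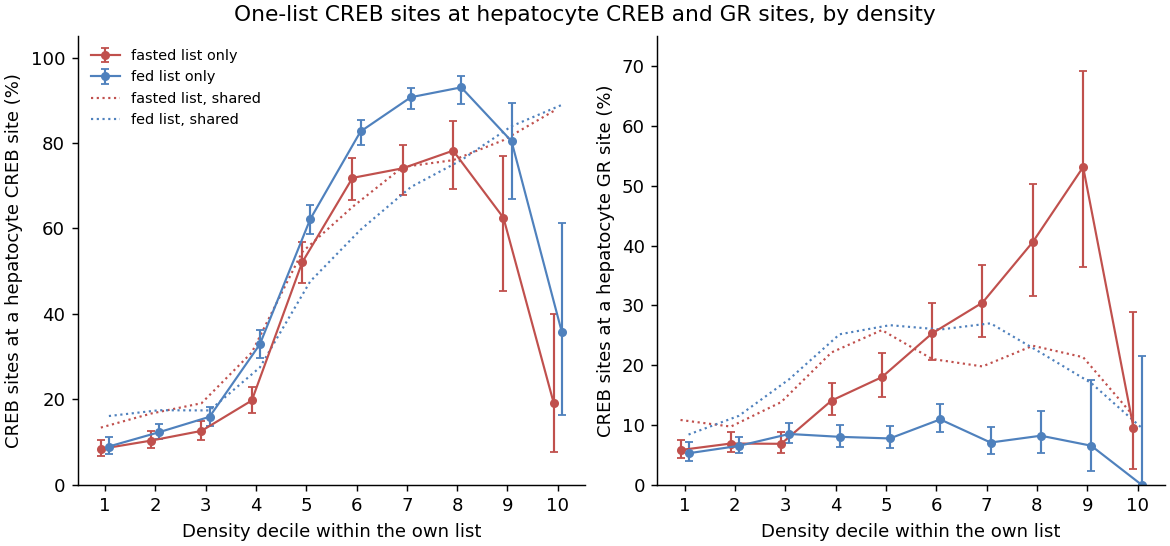
Percent of CREB sites at a hepatocyte CREB site (left) and at a GR site (right) by density decile. Solid lines with 95% Wilson intervals are the sites of that list only, and dotted lines are the shared sites of the same list. In the right panel the fasted-only line reaches 53.1% in the ninth decile, while the fed-only line stays under 11%.

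The GR result depended on how sites were ranked. When the authors' z-score was used in place of density, the upper 50% held 1353 fasted-only and 1652 fed-only sites, with 11.5% and 9.14% at a GR site and 17.6% and 29.9% at a hepatocyte CREB site. The 2 measures order the sites of 1 list only differently, with a Spearman correlation of -0.17 in the fasted-only and -0.12 in the fed-only sites, and of 0.48 and 0.51 over the whole lists. Sites in the upper 50% by both measures met a GR site at 48.2% among 112 fasted-only sites (39.2 to 57.4) and at 9.55% among 314 fed-only sites (6.77 to 13.3). Sites in the upper 50% by density alone did so at 26.5% (fasted-only) and 8.76% (fed-only), and those in the upper 50% by z-score alone at 8.22% and 9.04%. The last group seldom met hepatocyte CREB, at 12.5% of 1241 fasted-only and 15.2% of 1338 fed-only sites.

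The denser sites were also split by both marks. Of the denser sites at a hepatocyte CREB site and a GR site, 77.4% of 870 fasted sites and 84.7% of 810 fed sites were shared, leaving 197 fasted-only and 124 fed-only sites. Ranked by z-score, these were 100 fasted-only and 87 fed-only sites. Of those at a hepatocyte CREB site without GR, 91.5% of 3483 fasted sites and 74.5% of 4448 fed sites were shared. This left 296 fasted-only and 1136 fed-only sites, and ranked by z-score 138 and 407. The denser 50% held 5670 fasted and 6570 fed sites, so these counts also carry the longer fed list. With lists cut by density to equal length, 296 fasted-only and 800 fed-only sites lacked GR, and 197 and 76 had it. With lists cut by z-score, 353 and 790 lacked GR, and 224 and 82 had it. The 207 denser fasted-only sites at GR also lay at hepatocyte CREB in 95.2%, at 24 h H3K27ac in 84.1% and at fed H3K27ac in 71.0%. For the 130 fed-only sites at GR these shares were 95.4%, 60.8% and 62.3%. Of the fasted-only sites with GR, 85.5% lay at a CREB site of untreated hepatocytes, 90.3% at one with glucagon alone and 94.2% at one with glucagon and corticosterone. For the fed-only sites with GR these shares were 89.2%, 88.5% and 93.1%, and for the 483 denser fasted-only sites without GR they were 54.0%, 50.5% and 58.8%. The GR list comes from hormone-treated hepatocytes and says nothing of GR in these livers.

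Examples of these sites, the densest of their kind and chosen after their values were seen, were wide and peaked. The first fasted-only site at GR, at chr13:52275089-52275994 (906 bp, density 51.8, rank 921), and the second, at chr1:132660517-132661374 (858 bp, 45.8, rank 1032), met all 3 hepatocyte CREB lists, all 3 H3K27ac lists and 1 of the phospho-CREB lists. The nearest fed CREB sites were 187 kb and 84.9 kb away. The same marks were present at chr14:41915269-41916184, where a fed site lay 5.26 kb away, and at chr5:136170733-136171595. The densest fed-only site at GR, at chr1:60655590-60656317 (728 bp, density 21.8, rank 2334), met all 3 hepatocyte CREB and all 3 H3K27ac lists and no phospho-CREB list, and its nearest fasted site was 190 kb away.

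The sex chromosomes differed from the autosomes in both states, while single autosomes also varied. Chromosome X held 9.72% of the fasted and 8.59% of the fed CREB sites, and 14.0% and 12.9% of the phospho-CREB sites, against 2.49% to 4.09% of the hepatocyte CREB lists. Of the sites on chromosome X, 74.0% in the fasted list and 73.3% in the fed list were shared, against 59.6% and 50.7% of those on the autosomes. Among single autosomes chromosome 11 came near that in the fasted list, with 72.4% shared, and had 56.5% in the fed list. Sites on chromosome X lay at a phospho-CREB site at 66.0% in the fasted list and 63.2% in the fed list, and on the autosomes at 37.6% and 30.5%. At hepatocyte CREB sites the order was the reverse, with 20.2% (fasted) and 23.7% (fed) on chromosome X and 53.7% and 56.2% on the autosomes. The liver H3K27ac lists differed there. The fed H3K27ac list was met by 20.4% of the fasted and 22.5% of the fed CREB sites of chromosome X, the 10 h list by 62.1% and 64.3%, and the 24 h list by 22.7% and 24.6%. On the autosomes the 10 h list was met by 53.7% and 53.9%, and the 24 h list by 40.7% and 41.4%. Chromosome Y, with 142 fasted and 144 fed sites, had 85.2% and 82.6% shared. Of its sites, 84.5% in the fasted list and 79.2% in the fed list lay at a phospho-CREB site, and 9.15% and 10.4% at a hepatocyte CREB site.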

How the data were processed

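Chromatin immunoprecipitation of CREB in mouse liver was analysed as deposited peak lists. Per the submitters' processing notes, CASAVA 1.8 and the genome build mm9 were used, and the list names speak of hotspot calling with a false discovery rate tag. The caller's other settings are not given in the sources at hand. Per the file headers, each region has a highest and an average tag density, a z-score, a p-value and a running number. The authors computed the density signal of each region with their peak caller. They also gave each region a score, which the deposited headers call a z-score, and its scaling is not stated. The density has no stated scaling and was ranked only within a list. The deposited z-score served as an alternative rank. The deposited p-value was not used. The highest running number was 16002 in the fasted and 19990 in the fed list, so 70.9% and 65.7% of the numbered regions are in the lists, and what removed the others is not stated.

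Sites were matched by at least 1 shared base, on coordinates counted with both ends included. No sample could be matched to 2 of the 13 lists, whose 8 value columns were left out. Named sites were the 5 shared sites with the highest mean percentile, the 5 largest rank differences in each direction among pairs with a single partner, and the 5 densest sites of each list only. Members, lists and comparisons were chosen with earlier results of these data known. The planned gene lists, marker check and motif search were not run, since no mm9 genome or annotation was used here. Overlap counting returned the planted counts on simulated lists. The tools were matplotlib 3.10.9, SciPy 1.17.1, pandas 2.3.3 and numpy 2.4.6 under Python 3.11.15.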

Additional observations from a re-analysis of the deposited data

How the results depend on the processing

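No paired analysis was possible because each list gives 1 value per site and none per library, and for the same reason no library could be left out. Of 185 recomputed values for the comparisons, 144 were held as unchanged and 41 moved further. Most of the 185 are values of a single list and carry no direction. A value was held when it lay inside the main interval, and a count when it stayed within 1.5 times. Differences between the medians of shared and one-list sites were held within 50% of the main difference, a wider rule that all of them met. Under it the fasted percentile difference of 43.0 points was held at 29.3 when ranked by z-score. Cut by density to equal length, the lists had 4687 fasted-only and 4684 fed-only sites, with 58.7% of either list shared. Equal lengths give near equal numbers by construction, so this setting does not test the higher count of fed-only sites. In the denser 50% of the lists so cut there were 692 fasted-only and 979 fed-only sites, against 690 and 1455 in the full lists. With the lists cut by z-score these were 841 and 966. In the upper 50% of each list there were 970 fasted-only and 1846 fed-only sites, with median percentiles of 18.1 and 21.5 and median widths of 485 and 499 bp. Of their denser 50%, 57.6% of the fasted-only sites met hepatocyte CREB, and 40.2% of the fasted-only and 6.79% of the fed-only sites met GR. Sites with hepatocyte CREB and GR numbered 35 and 11, those without GR 18 and 128, and the rank correlation of shared sites was 0.88. Ranked by z-score, the median percentile of fasted-only sites was 32.1. The upper 50% then met hepatocyte CREB at 17.6% (fasted-only) and 29.9% (fed-only) and GR at 11.5% (fasted-only) and 9.14% (fed-only), with 100 fasted-only and 87 fed-only sites at both marks. Those without GR numbered 138 and 407, and the correlation was 0.84. Without chromosomes X, Y and M the median percentiles were 26.1 and 31.4, and hepatocyte CREB was met by 76.5% of the denser fasted-only sites. Without sites at phospho-CREB, an alternative chosen after seeing the data, these values were 30.4, 36.04 and 76.8%, with 84.7% for fed-only sites, widths of 340 and 362 bp and a correlation of 0.84. With equal length by z-score the fed-only sites had a median percentile of 26.8, a width of 419 bp, 90.3% at hepatocyte CREB and 82 sites at both marks. With equal length by density they had a width of 393 bp, 89.5% and 76 sites, and the correlation was 0.92. With each site matched to its densest partner it was 0.93. An overlap of at least 50% of the shorter site, windows of 500 bp and, added after seeing the data, removal of flat sites gave no such shift. A gap of up to 500 bp raised the shared part to 64.1% of the fasted and 55.3% of the fed list. This left 4074 fasted-only and 5880 fed-only sites. The shared part moved further under other settings. Removal of sites at phospho-CREB lowered it to 48.3% (fasted) and 37.1% (fed). Keeping only the upper 50% of both lists raised it to 82.9% (fasted) and 71.9% (fed). The cause of the shifts was not tested.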
